A study of Homo sapiens with 2 samples.

Results

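The cytosolic ribosomal protein genes were examined in the mRNA library of U87MG, an established human glioblastoma cell line that was grown without treatment. Members were chosen by symbol among the protein-coding genes: RPL or RPS with a number and an optional A, L, X or number suffix, together with RPLP0, RPLP1, RPLP2 and RPSA. RPS6 kinases (RPS6K), RPS19BP1 and RPS4Y genes were left out. This gave 82 of the 14376 listed coding genes and of 21445 listed genes in all. The series holds 1 mRNA library and 1 small RNA library of the same untreated line, with no control cell, and only the mRNA library was used here. Expression is given as FPKM, which corrects fragment numbers for the length of a gene and the size of the library, so levels of different genes can be set side by side, but a value has no replicate error and the depth of the library is unknown. VIM, a filament protein of mesenchymal cells, was at 2420 FPKM and the collagen genes COL1A1 and COL1A2 at 476 and 535. PTPRC, HBB and ALB, markers of leukocytes, red blood cells and liver, had no row. That is not read as a lack of expression, since some ribosomal protein genes had no row either.

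The cytosolic ribosome translates messenger RNA in a small subunit, which reads the codons, and a large subunit, which joins the amino acids. Each subunit is built from ribosomal RNA and a fixed set of proteins, nearly all present as 1 copy, so the genes are usually transcribed at high and similar levels. Their mRNAs begin with a C followed by a run of pyrimidines, the terminal oligopyrimidine (TOP) tract, through which mTOR signalling adjusts their translation in growing cells.

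The rows covered most of the standard ribosome. Of the 82 members, 75 encode proteins of the standard ribosome, 6 are paralogues of such genes, and 1 is a duplicate row. The standard set has 80 genes, 47 of the large and 33 of the small subunit. FAU (315 FPKM), which encodes a ribosomal protein fused to a ubiquitin-like protein, and RACK1 (812 FPKM, listed under an older symbol), a scaffold on the small subunit, fall outside the symbol rule. RPS9 and RPS25 of the small subunit had no row.

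The start of the transcript is shown for the genes that the values below turn on: the 3 highest members, the 5 lowest standard members with a promoter sequence, the genes without a row, a high member with no tract, and 3 paralogues. Each line gives 30 bases, 15 before and 15 from the RefSeq start site onward, on build GRCh38.p14. Capitals mark a pyrimidine tract of at least 5 bases that opens with C at the start site. The RPL7A tract runs past the end of the window, so only its part inside the window is shown.
RPL37A, chr2:216498829-216498858, plus strand: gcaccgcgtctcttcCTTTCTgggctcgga
RPS23, chr5:82278340-82278369, minus strand: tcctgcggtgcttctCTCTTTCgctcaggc
RPS27, chr1:153990747-153990776, plus strand: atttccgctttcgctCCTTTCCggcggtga
RPS18, chr6:33272060-33272089, plus strand: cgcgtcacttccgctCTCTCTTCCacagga
RPS19, chr19:41860240-41860269, plus strand: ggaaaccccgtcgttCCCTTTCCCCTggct
RPL7A, chr9:133348203-133348232, plus strand: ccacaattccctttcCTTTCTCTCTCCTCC
RPL10, chrX:154398362-154398391, plus strand: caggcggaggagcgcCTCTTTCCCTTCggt
RPL22, chr1:6199581-6199610, minus strand: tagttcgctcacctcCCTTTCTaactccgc
RPS9, chr19:54200843-54200872, plus strand: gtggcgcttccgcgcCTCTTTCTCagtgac
RPS25, chr11:119018329-119018358, minus strand: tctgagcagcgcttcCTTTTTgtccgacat
RPS29, chr14:49598696-49598725, minus strand: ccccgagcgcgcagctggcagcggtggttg
RPL22L1, chr3:170870181-170870210, minus strand: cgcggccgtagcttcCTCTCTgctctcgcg
RPL7L1, chr6:42879601-42879630, plus strand: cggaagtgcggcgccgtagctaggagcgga
RPS27L, chr15:63157463-63157492, minus strand: aagttgatgccgagcgcagatcgcttgcag

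Both the highest and the lowest standard members carried the tract. Among the highest it ran over 6 bases in RPL37A, 7 in RPS23, 7 in RPS27, 12 in RPS21 and 9 in RPLP0. Among the lowest it ran over 9 in RPS18, 11 in RPS19, 16 in RPL7A, 12 in RPL10 and 7 in RPL22. RPS19 has 2 and RPL10 has 3 annotated start sites, and the one with the longest tract is shown. RPS29 was the sixth highest member at 1208 FPKM and had no C at its annotated start.

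Ribosomal protein genes were among the most abundant coding genes of the library. Their median was 494 FPKM (quartiles 296 and 747), against 7.82 over all coding genes, 63.2 times lower. At 100 FPKM or more stood 72 of the 82, or 87.8%, where the share over all coding genes was 3.83%. All 82 were at 1 FPKM or more, against 77.5% of all coding genes. Of the 50 coding genes with the highest FPKM, 22 were members, and of the first 100, 45 were. Together the members held 11.8% of the FPKM sum of coding genes.

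The highest levels belonged to RPL37A at 1650 FPKM, RPS23 at 1496 FPKM, RPS27 at 1420 FPKM, RPS21 at 1253 FPKM, RPLP0 at 1237 FPKM and RPS29 at 1208 FPKM. RPL37A, a zinc-binding protein of the large subunit, ranked 12 among coding genes. RPS23 lies at the decoding site, and RPLP0 carries the stalk that recruits elongation factors. The highest member was 3.34 times the median and none was more than 4-fold above it. These 6 genes held 18.7% of the members' sum, and 22 genes were needed to reach 50% of it, so no small group dominated.

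**Figure D1:**
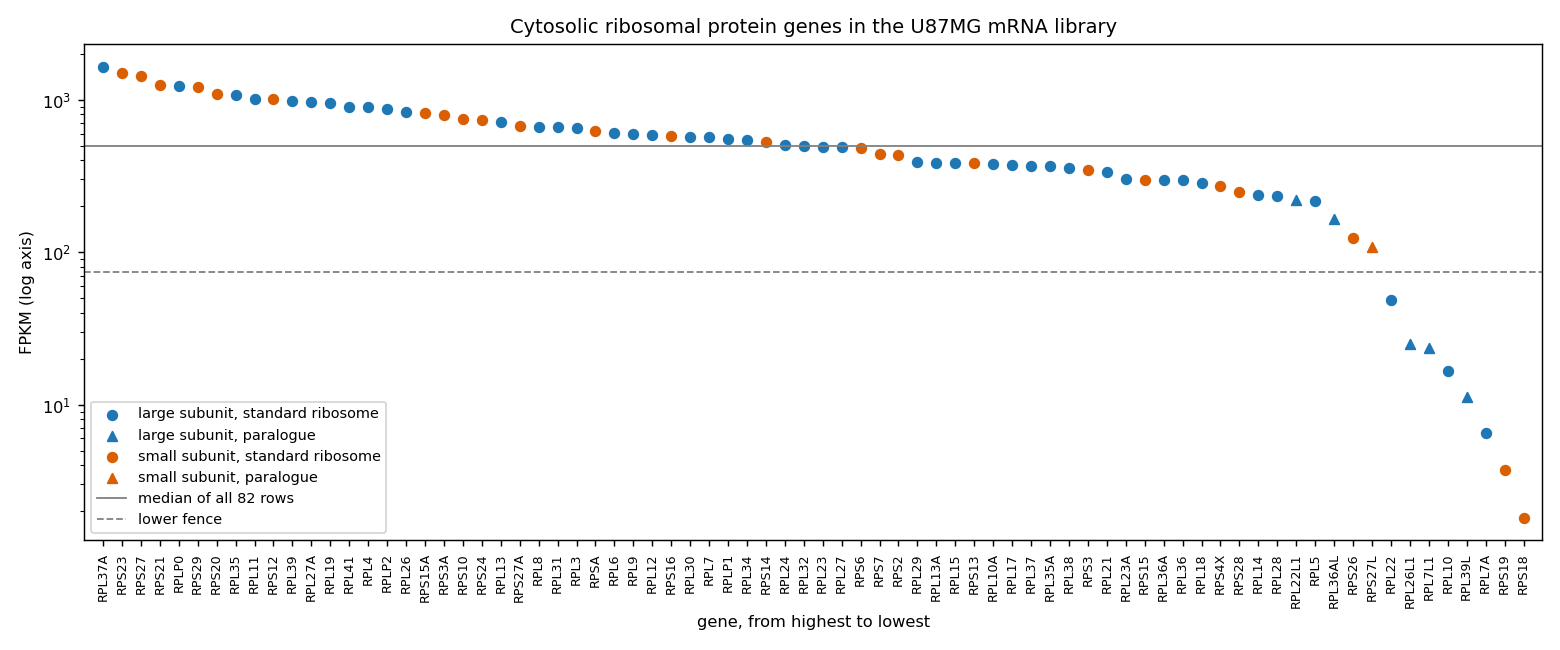
FPKM of 76 ribosomal protein rows on a log axis, ordered from highest to lowest, with colour for the subunit, circles for the standard ribosome and triangles for paralogues. The values form a shallow slope from 1650 to 109 FPKM, and 8 of the rows drawn lie under the lower fence of 73.6 FPKM (dashed), down to RPS18 at 1.81.

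Most members lay close to one another, and the exceptions were all low. The interquartile range was 1.34 on the log2 scale, a factor of 2.53 between the quartiles, and 55 of 82 members (67.1%) were within 2-fold of their median. The same factor was 2.41 over 36 proteasome rows and 2.51 over 74 mitochondrial ribosomal protein genes, against 14.8 over all coding genes. The share within 2-fold of the list's own median was 69.4% in the proteasome list, 67.6% in the mitochondrial list and 31.3% over all coding genes. The central spread of the cytosolic set was thus near that of these other complexes. Its standard deviation of 1.98 (log2) exceeded the 1.11 found in the proteasome list and in the mitochondrial list. Over all coding genes it was 3.05. Fences set 1.5 interquartile ranges beyond the quartiles, at 73.6 and 3003 FPKM, left 10 rows below and 0 above. Without these the remaining 72 rows had a standard deviation of 0.84 (log2).

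The large and the small subunit were listed at nearly the same level. The 51 rows of the large subunit had a median of 492 FPKM and the 31 of the small subunit 519 FPKM, a difference of -0.08 on the log2 scale (large minus small). The direction depended on the summary: the difference of means on the log2 scale was 0.12. With RPS9 and RPS25 set to 0, the difference of medians on log2(FPKM + 1) was 0.02. Large subunit genes made up 62.2% of the rows and held 59.6% of the members' FPKM sum. The small subunit was the more spread, with a factor of 2.84 between its quartiles against 2.24 in the large subunit. Over the standard genes found by the symbol rule, 46 large and 29 small, the medians were closer still, at 525 and 527 FPKM. Their quartile factors were 1.94 and 2.76.

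**Figure D2:**
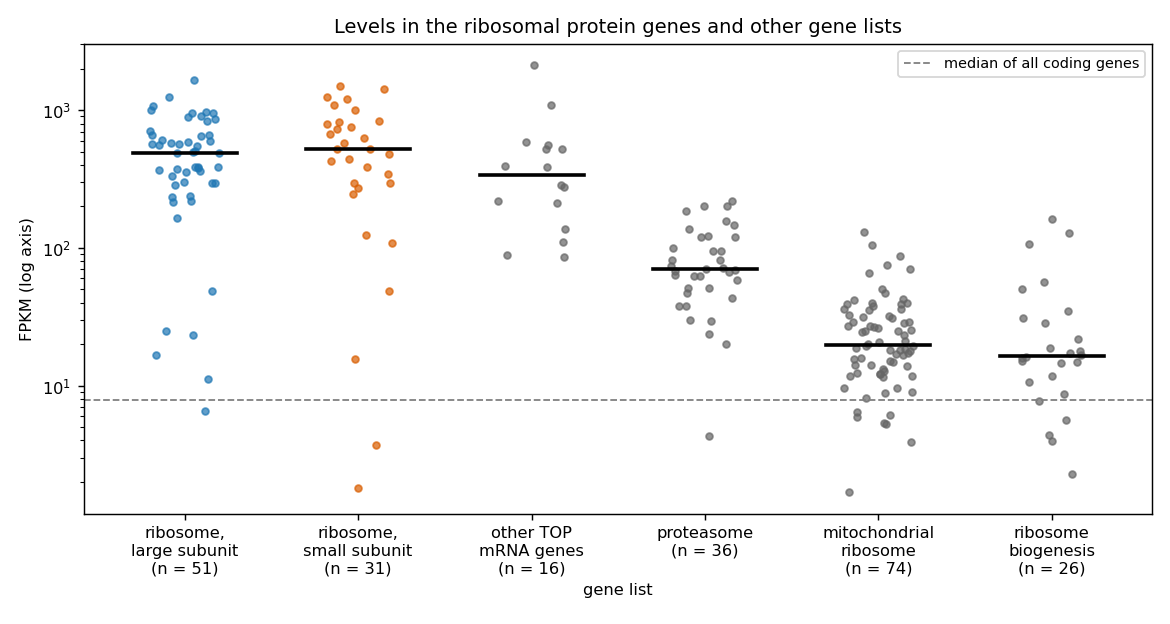
FPKM on a log axis for each gene (points, spread sideways for visibility) with the median of each list (bar) and of all coding genes (dashed line). The large and small subunit medians of 492 and 519 FPKM are level, with low genes in both, above the medians of the other TOP mRNA genes (336), the proteasome (69.9), the mitochondrial ribosome (19.8) and ribosome biogenesis (16.4).

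Within the large subunit, the stalk genes were all above the members' median, and those of the tunnel exit were mixed. The P stalk, which brings elongation factors to the ribosome, had RPLP0 at 1237 FPKM, its dimer-forming arms RPLP2 and RPLP1 at 869 FPKM and 555 FPKM, and RPL12 at its base at 586 FPKM. At the exit of the peptide tunnel, where chaperones and the signal recognition particle dock, RPL35 was at 1079 FPKM, RPL39 at 973 FPKM, RPL19 at 947 FPKM, RPL26 at 832 FPKM, RPL31 at 664 FPKM, RPL17 at 372 FPKM and RPL23A at 300 FPKM. RPL22 of the same site was the lowest at 48.7 FPKM. Of these 8 genes, 5 were above the members' median, and RPL17, RPL23A and RPL22 were below it. RPL5 and RPL11 bind 5S rRNA as one particle, which also holds back the p53 inhibitor MDM2, and they differed: RPL11 stood at 1010 FPKM and RPL5 at 216 FPKM.

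Within the small subunit, the genes of the mRNA channel and decoding site spanned a wide range. RPS23 was at 1496 FPKM, followed by RPS14 at 527 FPKM, RPS2 at 431 FPKM, RPS3 at 347 FPKM, RPS15 at 298 FPKM, RPS28 at 248 FPKM and RPS26 at 124 FPKM. RPS2 and RPS3 line the mRNA entry. RPS6, the target of S6 kinases, was at 484 FPKM, and RPSA, also known as a laminin receptor, at 625 FPKM. RPS27A, which encodes a fusion to ubiquitin, was at 677 FPKM.

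Proteins that are shared by all domains of life and those that are not were listed at similar levels. The 32 universal genes with a row, of 33, had a median of 580 FPKM, and the 46 other standard genes, of 47, had 499 FPKM. All 19 genes of the list for Diamond-Blackfan anaemia, an inherited failure of red cell production caused by loss of ribosomal proteins, had a row; their median was 487 FPKM and 17 were at 100 FPKM or more. RPS19, the gene most often affected in that disease, was the lowest of them at 3.70 FPKM. RPS27 at 1420 FPKM was the highest.

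Below the lower fence lay 6 standard genes, of which 5 are described here. RPS18, at the head of the small subunit, was the lowest at 1.81 FPKM, 273 times under the members' median. RPS19, which is needed for the maturation of small subunit rRNA, was at 3.70 FPKM, 133 times under it, and RPL7A, a large subunit protein, at 6.55 FPKM, 75.4 times under it. RPL10, which joins the large subunit late in its assembly, was at 16.6 FPKM, and RPL22 at 48.7 FPKM. The paralogues RPL26L1, RPL7L1 and RPL39L also lay below the fence. Just inside the fence lay RPS27L at 109 FPKM and RPS26 at 124 FPKM.

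For RPL7A, a single pseudogene row was higher than the gene itself. Ribosomal protein genes have many processed pseudogenes, near-identical copies that can share reads with the gene, so the split between a gene and its copies is uncertain. The library listed 237 pseudogene rows named for a ribosomal protein gene, with a sum of 1548 FPKM, 3.50% of the members' sum. Of these, 118 were under 1 FPKM and 27 at 10 FPKM or more. RPL7AP6 was the highest at 130 FPKM, 19.8 times the level of RPL7A. The next RPL7A pseudogene row, RPL7AP66, was at 1.99 FPKM, and the 14 RPL7A pseudogene rows summed to 140 FPKM. With them added, RPL7A came to 146 FPKM and lay inside the fences drawn from values summed in the same way.

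RPS18 was also exceeded by its pseudogenes, although at a low level: 2 rows summed to 8.75 FPKM, and gene and pseudogenes together came to 10.6 FPKM. RPS19, RPL10 and RPL22 had no pseudogene row that carries their name. Among members above the fence, the pseudogene sum as a share of the gene was largest for RPL7, at 31.2% (177 FPKM over 22 rows). RPS2 followed at 25.9% (112 FPKM over 11 rows). In 9 of the 82 members the sum passed 10% of the gene, and 27 members had no such row. For the highest members it was small: 0.228% for RPL37A and 1.30% for RPS23.

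**Figure D3:**
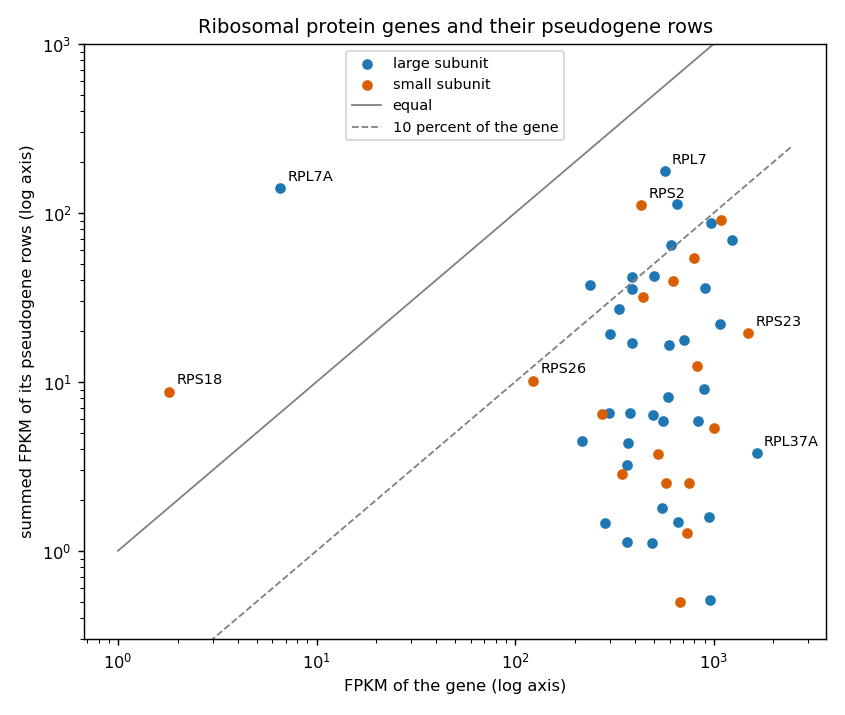
Summed FPKM of the pseudogene rows against the FPKM of the gene for 52 members with at least 1 such row, both on log axes, with lines at equality and at 10%. RPL7A and RPS18 are the 2 genes above the line of equality, and RPL7 at 31.2% and RPS2 at 25.9% lie above the 10% line.

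Rows were missing around some of the low and absent genes as well. For each standard gene, the 10 coding genes on either side in RefSeq order were checked for a row in the file. Over the 77 standard genes with all 20 neighbours, the median was 15 with a row. Of all RefSeq coding genes, 70.5% had a row. RPS9, which had no row, had 1 neighbour of 20 with a row, and RPS18 had 3, the lowest counts of the set. None of the 5 nearest on either side of RPS9 had a row. Those before it included CNOT3, a subunit of the main deadenylase complex, and TSEN34, of the tRNA splicing enzyme. The 5 after it were leukocyte receptor genes: LILRB3, LILRA6, LILRB5, LILRB2 and LILRA5. Of the 10 genes nearest to RPS18, which lies in the extended major histocompatibility complex, only TAPBP had a row. VPS52, PFDN6 and WDR46, which serve vesicle transport, protein folding and ribosome assembly in all cells, had none.

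RPS25, the other standard gene with no row, had 10 neighbours of 20 with a row, but TRAPPC4, SLC37A4, HYOU1 and VPS11 next to it on one side had none. RPS19 had 9 neighbours with a row, RPL10 had 11, RPL7A 12 and RPL22 14. Among members above the fence the lowest count was 8, at RPS4X, which was itself at 274 FPKM. The part of the missing neighbours in the levels of RPS18 and of the other low genes was not tested. A missing row is not read here as a lack of expression.

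**Figure D4:**
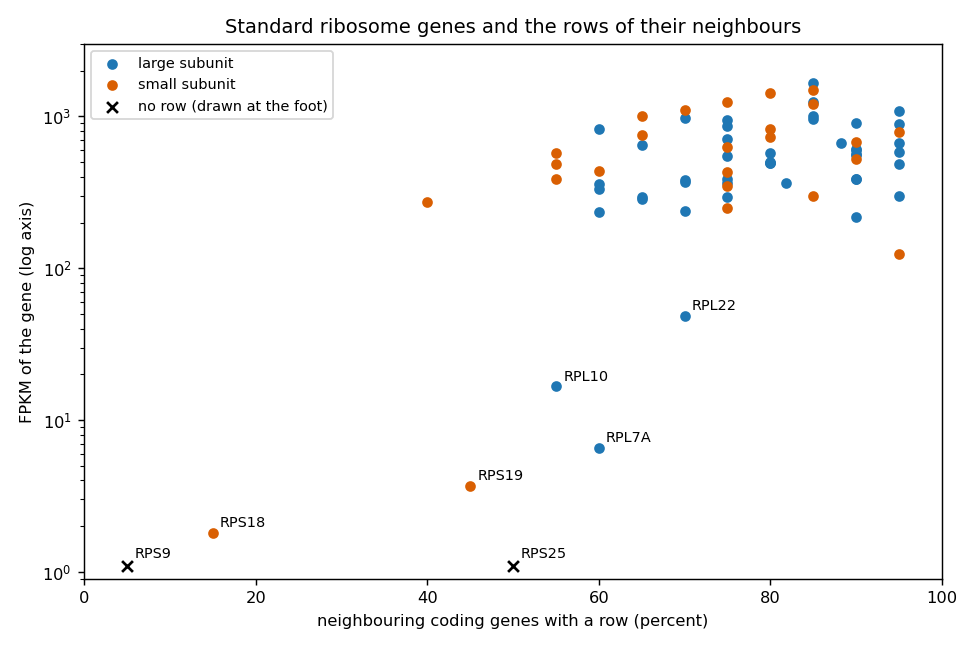
FPKM of standard genes found by the symbol rule (log axis) against the percent of its neighbouring coding genes that had a row; crosses at the foot mark RPS9 and RPS25, which had no row. RPS9 and RPS18 lie apart at 5% and 15%, whereas RPL7A, RPL10 and RPL22 are low at 55% to 70%.

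Paralogues were listed below their parent genes with 1 exception. RPL22L1 was at 220 FPKM and its parent RPL22 at 48.7 FPKM, a ratio of 4.51. RPL36AL, an intronless copy that encodes nearly the same protein as RPL36A, was at 166 FPKM and RPL36A at 297 FPKM. RPS27L, a p53 target gene, was at 109 FPKM against 1420 FPKM for RPS27, 13.1 times lower. RPL7L1, which acts in ribosome assembly, was at 23.5 FPKM, 24.2 times below RPL7, and RPL26L1 at 24.98 FPKM, 33.3 times below RPL26. RPL39L, known from testis and some tumours, was at 11.1 FPKM, 87.4 times below RPL39. RPL3L of muscle and RPL10L of testis had no row.

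**Figure D5:**
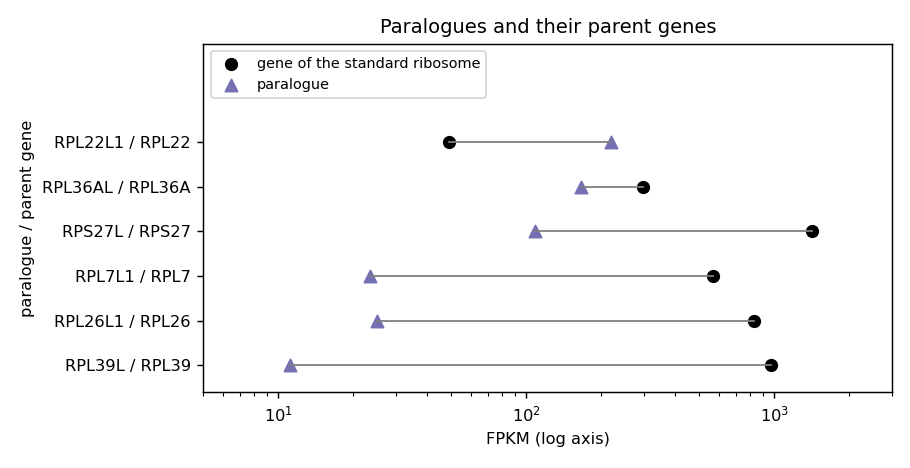
FPKM on a log axis of 6 paralogues (triangles) and their parent genes of the standard ribosome (circles), joined by a line. The triangle lies to the right of the circle for RPL22L1 (220 against 48.7) alone; RPL39L and RPL39 are the farthest apart, at 11.1 and 973.

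The tract shown above was common to most standard genes. RefSeq promoter sequences were matched for 64 of the 80 standard genes and 5 of 6 paralogues; RPL5, RPL7, RPL8, RPL23, RPL23A, RPL30, RPL37, RPL39L, RPS2, RPS15A and RPS20 were among those not matched. A tract of at least 5 pyrimidines opening with C at a start site was found in 48 of the 64 standard genes (75%), against 6.24% of 15843 coding genes with a promoter sequence. With genes of 1 annotated start alone, the shares were 77.8% of 54 and 4.59% of 11786. Tracts that begin some bases away from the annotated start were not counted, so a gene without a counted tract may still have one. The longest was in RPL39, with 19 bases, and the median tract had 8. Of 69 mitochondrial ribosomal protein genes 8.70% had it, and of 10 other genes known for TOP mRNAs 9 did.

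Levels of genes with and without a counted tract at the annotated start overlapped. The 46 standard genes with a tract and a row had a median of 565 FPKM, from RPS18 at 1.81 to RPL37A at 1650, and the 16 without had 463 FPKM, from RPS26 at 124 to RPS29 at 1208. The 16 were RPL3, RPL4, RPL6, RPL9, RPL10A, RPL15, RPL17, RPL19, RPL27, RPL32, RPS4X, RPS7, RPS15, RPS26, RPS28 and RPS29. The 5 lowest standard genes with a promoter sequence all had the tract. Of the 5 paralogues with a promoter sequence, RPL22L1 had it at the annotated start, and RPL36AL, RPL7L1, RPL26L1 and RPS27L did not. RPL36AL did open with C there, but its run had 3 pyrimidines. RPL22L1 was also the highest of the 5.

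Core promoter motifs were searched on both strands in the 300 bases around the same starts. TATAAA, the core element that binds the TBP protein, occurred in 7.81% of the 64 standard genes and in 12.4% of all coding genes. CCGGAAG, which ETS factors bind, occurred in 34.4% and 16.5%, and AAGATGG, part of the YY1 site, in 15.6% and 7.90%. Mitochondrial ribosomal protein genes held these 2 motifs in 43.5% and 34.8%. These matches describe letters in a window and are not shown to be used.

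Members lay on 21 chromosomes, with 11 on chromosome 19, 9 on chromosome 3 and 6 on chromosome 17. The 4 X-linked members ranged from RPL10 at 16.6 FPKM through RPS4X at 274 FPKM and RPL36A at 297 FPKM to RPL39 at 973 FPKM. The file also lists a length for 81 members, which seems to be that of 1 protein per gene, since TTN is given 34350. Spearman's rho between this length and FPKM was 0.02 over these 81 genes, a description across genes, which are not independent replicates. The length can be that of a short isoform, as for RPL5 with 63.

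Small nucleolar RNAs guide the modification of rRNA, and many are cut from introns of ribosomal protein genes. RefSeq places 60 snoRNA genes inside members, and 11 had a snoRNA row in the library. SNORA52 was at 3860 FPKM, 4.44 times its host RPLP2. SNORD15B (1151 FPKM, in RPS3), SNORA7A (1181 FPKM, in RPL32), SNORA27 (1125 FPKM, in RPL21) and SNORA65 (710 FPKM, in RPL12) were also above their hosts. Below their hosts were SNORA64 (359 FPKM, in RPS2), SNORA3A (228 FPKM, in RPL27A), SNORA21B (79.2 FPKM, in RPL23) and SNORA62 (48.3 FPKM, in RPSA). SNORA70 was at 92.9 FPKM, 5.58 times its host RPL10, one of the low genes. FPKM divides by length, and for RNAs this short it depends on the length rule of the program used, which no source here names.

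Other genes of protein synthesis formed a graded series below the ribosomal proteins. The 16 other TOP mRNA genes, which encode elongation factors and related proteins, had a median of 336 FPKM and 14 were at 100 FPKM or more. The elongation factor EEF1A1 was at 2116 FPKM, above every member, followed by TPT1 at 1090 FPKM and the poly(A)-binding PABPC1 at 591 FPKM; the initiation factor subunits EIF3F and EIF3H were lowest at 88.6 FPKM and 86.6 FPKM. Of 27 ribosome biogenesis genes 26 had a row, with a median of 16.4 FPKM. NCL, the main nucleolar protein, was at 163 FPKM, EIF6, which keeps the subunits apart, at 127 FPKM, and FBL, the rRNA methylase, at 106 FPKM, whereas BYSL was at 3.96 FPKM and BOP1 at 2.27 FPKM. DKC1, the pseudouridine synthase, had no row.

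Mitochondrial ribosomal protein genes, which serve the separate ribosome of mitochondria, were far lower, with a median of 19.8 FPKM over 74 genes and 2 at 100 FPKM or more. MRPL51 at 131 FPKM, MRPS6 at 105 FPKM and MRPL20 at 86.8 FPKM led this list, and MRPS17 at 3.92 FPKM and MRPL30 at 1.68 FPKM ended it. Its highest gene lay near RPS26, one of the lowest cytosolic members inside the fences. The proteasome list had a median of 69.9 FPKM, from PSMB1 at 221 FPKM, PSMD8 at 203 FPKM and PSMB7 at 201 FPKM to PSMD5 at 20.1 FPKM and a second PSMA2 row at 4.28 FPKM.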

How the data were processed

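Gene expression was measured in 1 mRNA library of U87MG cells. Values are FPKM per gene, deposited by the authors, per the file headers. The submitters' processing notes name cutadapt and the builds hg19 and GRCh37; no aligner, quantification program or annotation is stated. Depth is unknown, so values have no interval, and with 1 library no test was made. Of the 82 member identifiers, 81 matched the gene name table. Medians, quartiles, fences (1.5 interquartile ranges) and ranks were computed on FPKM or log2(FPKM) with no pseudocount, using Python 3.11.15, pandas 2.3.3, numpy 2.4.6 and scipy 1.17.1; the fences were tested on simulated data. Pseudogenes were assigned by symbol. Gene order, snoRNA hosts and promoter sequences (250 bases before to 50 after a start) came from RefSeq on GRCh38.p14. Members and lists were chosen with earlier results of these data known. Chosen for naming were the 6 highest and 6 lowest standard genes, all outliers, absent genes, paralogues, role groups and hosted snoRNAs. From other lists the 3 highest and 2 lowest were chosen. A few of the chosen genes are not shown. Alternatives changed the members, pseudocount, denominator and low-value filter. Values of a few members are left out of the text and of the plots by gene, though counts and medians include them. The small RNA files were not used.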

Additional observations from a re-analysis of the deposited data

How the results depend on the processing

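In this section the standard ribosome means its 75 members found by the symbol rule. The median of 494 FPKM was 527 with the standard ribosome alone and 489 with missing rows at 0. In a setting chosen after seeing the data, it was 511 with pseudogene rows added. The interquartile range of 1.34 (log2) was 1.24 for the standard ribosome and 1.33 with a pseudocount of 1. The large minus small difference of -0.08 (log2) was -0.0062 for the standard ribosome, -0.0787 with a pseudocount of 1 and -0.0730 without outliers (chosen after seeing the data), and it reversed to 0.12 with means and to 0.0237 with missing rows at 0; its direction is therefore not settled. The count of 10 outlying rows was 6 for the standard ribosome alone, which holds none of the paralogue rows, 11 by the 4-fold limit, and 9 with pseudogene rows added, where RPL7A was no longer among them. The 11.8% share of the coding sum was 11.6% for the standard ribosome, 1.25% of the sum of all genes and 1.74% without structured small RNA types. Leaving out members under 1 FPKM changed nothing, since all 82 were above it. The effect of adding standard genes from outside the symbol rule is left out. No paired analysis was possible because there is 1 mRNA library, and no replicate could be left out.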
